A study of Mus musculus with 5 samples.

Results

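The region described here is a 700 kb window of mouse chromosome 2 around Cebpb, from 167.3 to 168.0 Mb of the mm9 build, in which binding of estrogen receptor α (ERα) was mapped in the uterus. Its members were all ERα peaks that overlapped the window. They numbered 47 of the 17240 peaks listed after estradiol and 5 of the 5184 peaks listed after vehicle. The window was chosen by the number of peaks in each list, since its neighbourhood had far more estradiol than vehicle peaks, so these 2 numbers are a description and carry no test.

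Both libraries were made by chromatin immunoprecipitation and sequencing from uterus of C57BL/6J mice, labelled WT in both groups, with an antibody to ERα. All mice had been ovariectomized and were injected intraperitoneally 10 to 14 days later, with saline in the vehicle group and with 250 ng of estradiol per mouse in the other, and tissue was taken after 1 hour. Neither the age of the mice nor the number of uteri behind a library is given in the sources used here. The series has 1 library per condition, so every difference below is between 2 libraries, with no replicate check and no p-value. The lists hold positions only, and the number of reads behind each library is unknown. Whole uterus holds several cell types, and a peak list cannot tell apart a site bound in few cells from one bound weakly in many.

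ERα is a nuclear receptor that binds DNA as a dimer when it carries estradiol, at palindromic estrogen response elements or, with other factors, at a single arm of that palindrome. It often binds far from the genes it acts on. Cebpb encodes CCAAT/enhancer binding protein β, a basic leucine zipper transcription factor. In the rodent uterus Cebpb is known as an early gene of the estrogen response and as a gene that the stroma needs for decidualization, the change that prepares the tissue for an embryo.

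The genes around Cebpb were taken from a RefSeq table on GRCm38, another build, and only for their order. In that table the 5 protein-coding genes on the side of lower coordinates are Spata2, Rnf114, Snai1, Ube2v1 and Tmem189, with Tmem189 next to Cebpb. Snai1 encodes a zinc finger repressor of E-cadherin, Rnf114 a ubiquitin ligase and Ube2v1 a variant of ubiquitin-conjugating enzymes. On the side of higher coordinates follow Ptpn1, Ripor3, Pard6b, Adnp and Dpm1. Ptpn1 encodes a tyrosine phosphatase that acts on the insulin receptor, Pard6b a cell polarity protein and Dpm1 a subunit of dolichol-phosphate mannose synthase. Between Cebpb and Ptpn1 the table lists 13 genes, all 13 of them long noncoding RNAs. That 0 are protein-coding follows from the choice of Ptpn1 as the next protein-coding gene. Between Tmem189 and Cebpb the table lists 1 gene, also a long noncoding RNA. Whether the stretch is poor in protein-coding genes for its length was not tested. Because the builds differ, no peak was assigned to any of these neighbours.

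An estradiol peak of 268 bp lay where Cebpb begins, from 167514163 to 167514430, with Cebpb itself at about 167.514 to 167.516 Mb. The sequence before the start of Cebpb is therefore shown, taken from RefSeq on GRCm38.p6 (chr2:167688665-167688914, plus strand), a position that is not on the scale of the mm9 peaks. It is the 250 bases before the annotated start, with the only match to a searched motif, a single arm GGTCA of the estrogen response element, in capitals.
Cebpb, before the start: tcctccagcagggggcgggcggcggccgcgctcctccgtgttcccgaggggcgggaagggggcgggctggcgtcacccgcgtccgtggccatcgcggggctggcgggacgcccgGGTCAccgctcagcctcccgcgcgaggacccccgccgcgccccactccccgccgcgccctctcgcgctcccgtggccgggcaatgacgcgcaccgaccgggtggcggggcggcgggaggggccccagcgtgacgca
This arm spans positions -136 to -132 relative to the start. GGTCA was searched on both strands, where its other form is TGACC, and it is also a part of the full palindrome. It occurred in 35.2% of the 32817 promoter entries of that length in the table, so a match is common. Of the 11 genes named here, 9 had an entry, and 4 of the 9 held GGTCA, namely Cebpb, Rnf114, Snai1 and Ube2v1. The full palindromic estrogen response element was not found before Cebpb and occurs in 0.064% of entries. The AP-1 motif TGANTCA (6.75% of entries), the cAMP response element TGACGTCA (1.55%) and the C/EBP motif TTGCNNAA (9.57%), whose other strand reads TTNNGCAA, were not found before Cebpb either. G and C made up 81.6% of the 250 bases, against a median of 52.4% over all entries. The sequences of the peaks themselves were not used here, since no genome of their build was at hand.

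Around Cebpb, ERα peaks were listed after estradiol and none after vehicle. A cluster of 6 estradiol peaks spanned 12.96 kb from 167510785 to 167523742, where a cluster means 5 or more neighbouring peaks that are each less than 12500 bp apart. Its peaks were 144 to 349 bp long, with a median of 257.5 bp. The peak at the start of Cebpb was flanked on the lower side by the first peak of the cluster, 144 bp from 167510785 to 167510928, about 3.07 kb before the gene. Beyond the gene came 284 bp from 167517007 to 167517290, about 1.01 kb away, and 247 bp from 167518518 to 167518764, about 2.52 kb away. The longest of the cluster, 349 bp from 167519034 to 167519382, lay about 3.03 kb past the gene, and 81.6% of all estradiol peaks are shorter. The last peak of the cluster, 213 bp from 167523530 to 167523742, lay about 7.53 kb past it. Distances from Cebpb are good to about 1 kb, because its position was given only to that precision. The cluster held 0 vehicle peaks, and the nearest vehicle peak to the estradiol peak at the start of Cebpb was 54.2 kb away. Over the window, 6 estradiol and 0 vehicle peaks lay within 10 kb of the gene, 9 and 0 within 50 kb, and 25 and 4 within 100 kb. The window as a whole held 0.714 vehicle peaks per 100 kb, and 78.8% of all estradiol peaks had no vehicle overlap.

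The sites listed in both libraries lay together, about 70.1 to 75.1 kb past Cebpb, on the side of Ptpn1 in the gene order. There, 3 estradiol peaks in a stretch of 4.99 kb each overlapped 1 vehicle peak by at least 1 bp. The first was 513 bp long, from 167586123 to 167586635, and its vehicle peak 275 bp, from 167586234 to 167586508. The second was 711 bp, from 167586778 to 167587488, and its vehicle peak 133 bp, from 167586917 to 167587049. The third was 517 bp, from 167590598 to 167591114, and its vehicle peak 195 bp, from 167590727 to 167590921. In all 3 pairs the vehicle interval lay wholly inside the estradiol interval, as it did in 63.4% of the 3584 sites of both lists where 1 peak met 1 peak. When peaks closer than 500 bp were joined, 2 estradiol and 2 vehicle peaks had an overlap, so the 3 pairs are not all separate sites under that rule.

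These 3 were the longest estradiol peaks of the window. The shortest of them had 513 bp and the longest of the 44 without a vehicle peak had 451 bp, so the lengths did not overlap. Over the whole list the lengths of both kinds overlap widely, with a median of 306 bp (quartiles 233 and 398) with a vehicle peak and 227 bp (quartiles 175 and 294) without. The estradiol peak was 1.87, 5.35 and 2.65 times as long as its vehicle peak, against a median of 1.29 (quartiles 1.00 and 1.75) over the 3584 sites. The share of those sites with a smaller ratio was 78.9% for the first pair, 99.5% for the second and 93.0% for the third. The high ratio of the second pair rests on a short vehicle peak of 133 bp. Only 13.1% of all vehicle peaks are shorter, and the shortest has 100 bp. The 3 estradiol peaks made up 1741 of the 12151 bp covered by estradiol peaks in the window, or 14.3%. With 1 library per condition, a longer peak cannot be told apart from a deeper library or a higher yield.

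**Figure D1:**
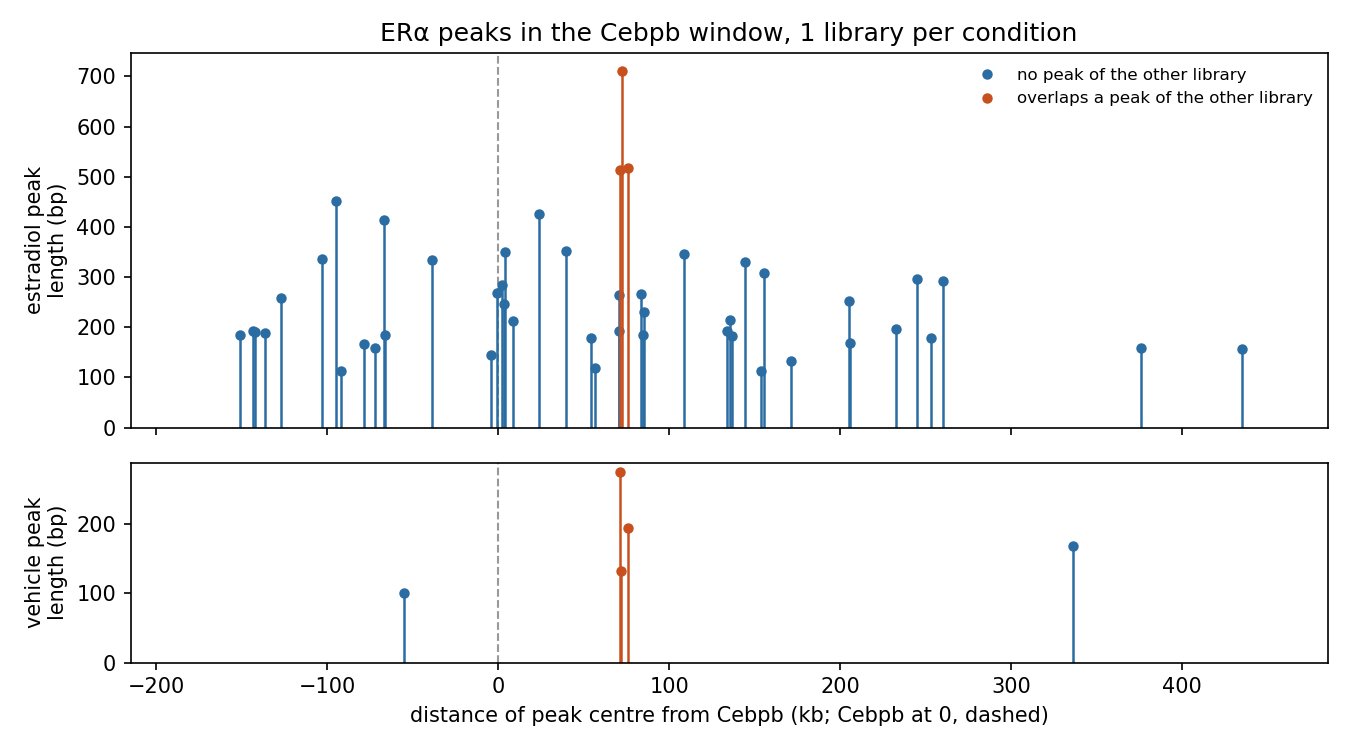
Length in bp (vertical axis) of each ERα peak of the window against the distance of its centre from Cebpb in kb (horizontal axis), after estradiol (top, 47 peaks) and vehicle (bottom, 5 peaks), with peaks that overlap one of the other library in orange and the others in blue. The 3 overlapping pairs stand together past Cebpb, and their estradiol peaks of 513, 711 and 517 bp are the tallest lines.

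Estradiol peaks crowded around the shared sites as well. The cluster that holds them had 8 estradiol peaks from 167585210 to 167600585 and all 3 of the shared sites. Its first peak, 265 bp from 167585210 to 167585474, and a peak of 192 bp from 167585541 to 167585732 lay 0.759 and 0.501 kb before the nearest vehicle peak. A peak of 267 bp began at 167598455, another of 185 bp at 167599637, and the last of the cluster spanned 230 bp from 167600356 to 167600585. Their distances to the nearest vehicle peak were 7.53, 8.71 and 9.43 kb. These 5 were the only estradiol peaks of the window that lay within 10 kb of a vehicle peak without overlapping one, or 11.4% of the 44. Over the whole list this share was 18.4% of 13577.

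**Figure D2:**
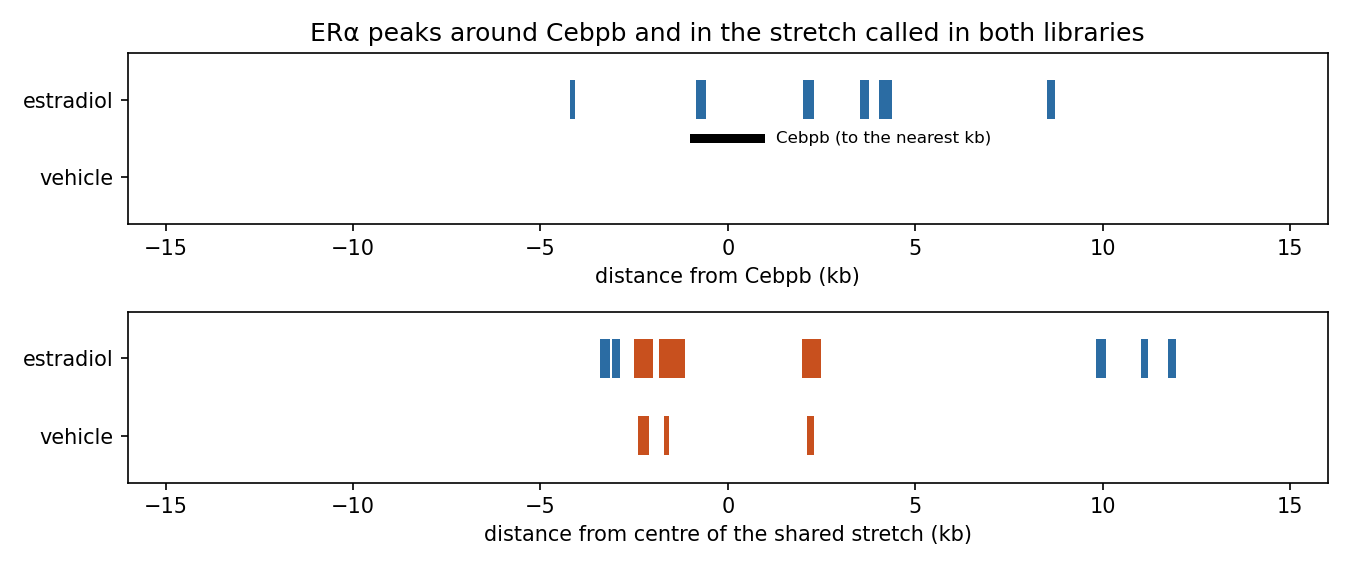
Intervals of ERα peaks within 16 kb of Cebpb (top) and of the centre of the stretch with shared sites (bottom), by distance in kb, with a row for each library; orange marks peaks that overlap one of the other library, blue marks other estradiol peaks, and the black bar is Cebpb to the nearest kb. The 6 estradiol peaks around Cebpb face an empty vehicle row, whereas each of the 3 vehicle peaks below lies inside an estradiol peak.

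The remaining pair of vehicle peaks had no estradiol peak. One, at the lowest length in the list, was 100 bp from 167459818 to 167459917, about 54.1 kb before Cebpb, and its nearest estradiol peak was 11.0 kb away. The other was 169 bp from 167850803 to 167850971, about 335 kb past Cebpb, with the nearest estradiol peak 40.2 kb away. Thus 3 of 5 vehicle peaks (60.0%, 95% Wilson interval 23.1 to 88.2) had an estradiol overlap, beside 71.3% over the whole vehicle list, a value inside that interval. In the other direction 3 of 47 estradiol peaks (6.38%, 2.19 to 17.2) had a vehicle overlap, beside 21.2% over the whole estradiol list. The other 44 (93.6%) had none, beside 78.8% over that list. These intervals reflect counting alone, as if each peak were an independent draw. With 5 vehicle peaks beside 47 estradiol peaks, few overlaps were possible. An estradiol share below that of the whole list was thus largely set by the counts by which the window was chosen.

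Over the whole estradiol list 78.8% of peaks had no vehicle overlap, a share that covers all lengths. Peaks without a vehicle overlap were shorter there, with a median of 227 bp against 306 bp, so that share is no like background for long peaks. Of the 10 longest estradiol peaks of the window, 7 overlapped no vehicle peak. Before Cebpb these were 451 bp from 167419945 to 167420395, 414 bp from 167447905 to 167448318 and 335 bp from 167411475 to 167411809. Past Cebpb they were 425 bp from 167538892 to 167539316, about 22.9 kb away, and 351 bp from 167554704 to 167555054, about 38.7 kb away. The last were the peak of 349 bp in the cluster at Cebpb and one of 346 bp from 167623545 to 167623890, about 107.5 kb away. The second longest of these 7, at 425 bp, exceeded 90.4% of all estradiol peaks in length. These long peaks stood on both sides of the gene, and 6 of the 7 lay outside any cluster. Clusters held 53.2% of the estradiol peaks of the window but 14.6% of the whole estradiol list. Most peaks of that list thus lie outside a cluster as well.

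As a group, the estradiol peaks of the window were of ordinary length. Their median was 215 bp (95% interval of the median 189 to 268; range 113 to 711), beside 242 bp for the whole list, which lies inside the interval. When the whole list was cut into quartiles of length, 13, 12, 10 and 12 of the 47 fell into them from the shortest to the longest. The 5 vehicle peaks had a median of 169 bp, beside 207 bp for the whole vehicle list, with too few peaks for a narrower statement than their range of 100 to 275 bp.

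**Figure D3:**
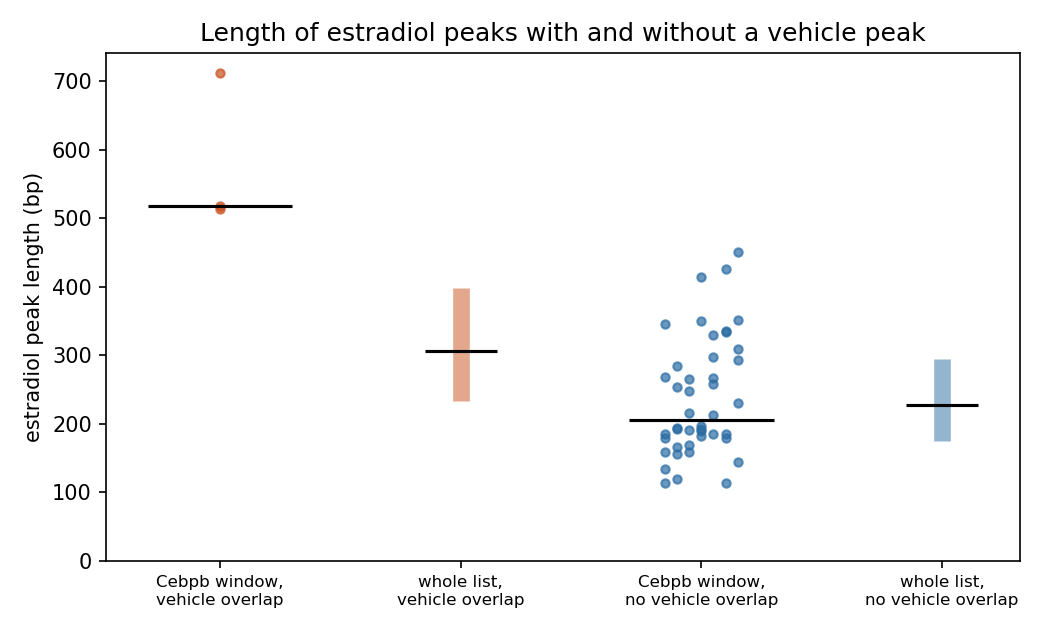
Length of estradiol peaks in bp, for peaks of the window as points with a black line at the median and for the whole list as a bar from the lower to the upper quartile with a black line at the median; orange groups overlap a vehicle peak and blue groups do not. The 3 shared peaks of the window lie above all 44 others, and those 44 have a median of 204.5 bp, against 227 bp for peaks of the whole list without a vehicle peak.

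Estradiol peaks were dense up to about 259 kb past Cebpb and sparser beyond. The 30 peaks between the end of Cebpb and 167775174 came to 11.6 per 100 kb, up to an end point set at the widest gap. The last 225 kb of the window held 2. Over the span of the whole list there were 0.676 per 100 kb, so this end was sparse only beside the rest of the window. Over the whole side past Cebpb there were 32 peaks in 484 kb, or 6.61 per 100 kb. The widest gap between neighbouring peaks, 116 kb from 167775174 to 167891128, held 1 of the vehicle peaks without an estradiol overlap. Before Cebpb there were 14 estradiol peaks in 214 kb, or 6.54 per 100 kb, so the sides as wholes were about equally dense. The last of the lower peaks before the cluster at the gene was 334 bp from 167475967 to 167476300, about 37.7 kb away. By steps of 100 kb from 167.3 Mb the window held 5, 8, 17, 9, 6, 1 and 1 estradiol peaks. Vehicle peaks numbered 1 in the second, 3 in the third and 1 in the sixth of these steps. The edges of the window fell in gaps, since the first estradiol peak inside lay 63.7 kb from the lower edge and the last outside it 51.3 kb away. At the upper edge the last peak inside was 50.2 kb away and the next outside 292 kb away, and the next vehicle peak came only 1310 kb beyond that edge.

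Peaks stood in 4 estradiol clusters, which held 25 of the 47 peaks (53.2%), beside 14.6% of the whole estradiol list in clusters. The number depends on the gap allowed, with 2 clusters at gaps under 5 kb and 2 at gaps under 25 kb. At 25 kb the number is lower because neighbouring clusters run together, so more of the peaks stand in clusters. There was 1 cluster in the longer part of the list and 0 among the 5184 longest peaks. No vehicle cluster lay in the window, and the whole vehicle list held only 13, beside 363 clusters in the whole estradiol list. Besides those at Cebpb and at the shared sites, a cluster of 5 ran from 167363653 (first peak 184 bp) to 167388144 (last peak 258 bp), with a median length of 191 bp. Another of 6 ran from 167648593 (first peak 193 bp) to 167670410 (last peak 309 bp), about 133 to 154 kb past Cebpb, with a median length of 204 bp. Both held 0 vehicle peaks. The median gap between neighbouring estradiol peaks was 7.12 kb (95% interval 2.67 to 11.9), beside 27.3 kb over the whole list. This interval likewise treats each gap as an independent draw. Of the 46 gaps, 10 were under 1 kb (21.7%), beside 11.3% over the whole list. Spacing follows from the number of peaks by which the window was chosen, so it is a description as well.

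The estradiol peak names carry a number, and the lowest 5480 numbers of the list run in genome order. The meaning of the numbers is not stated in the sources used here. In the window 14 peaks belonged to this ordered part (29.8%, beside 31.8% of the whole list), numbered 2545 to 2558. All 3 shared peaks were among them, so 21.4% of the 14 and 0% of the other 33 had a vehicle overlap. Over the whole list these shares were 34.6% in the ordered part and 15.0% outside it. Those 14 had a median length of 347.5 bp against 189 bp for the other 33, as in the whole list, where the medians were 354 and 203 bp. Of the 6 peaks at Cebpb, the one of 349 bp was in the ordered part and the others were not. The peak at the start of the gene had the number 8909. In the vehicle list the peak of 275 bp had the number 1272, and the other 4 had numbers between 4188 and 4900, late in a list of 5184.

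Against other regions of its length the window was rich in peaks of both libraries. Per 100 kb it held 6.71 estradiol peaks against 0.676 over the span of the whole list, or 9.93 times as many, and 0.714 vehicle peaks against 0.203, or 3.51 times as many. When the genome was divided into windows of 700 kb, 2580 held a peak, with a median of 4 estradiol peaks (quartiles 2 and 9) and of 1 vehicle peak, and 324 of them held 5 or more vehicle peaks. The window of Cebpb was one of 3 in this division with 47 or more estradiol peaks, and both others held more. On chromosome 14 there were 74 estradiol and 8 vehicle peaks from 25.9 to 26.6 Mb. On chromosome 8 there were 64 and 5 from 122.5 to 123.2 Mb. This rank depends on where the windows begin, since the window of Cebpb coincides with one of the division while other dense regions may be split. A window on chromosome 5 outside the division, from 113703199 to 114403198, held 52 estradiol peaks. Among the 112 windows with 5 vehicle peaks, estradiol peaks ranged from 3 to 64 with a median of 12. Vehicle peaks made up 9.62% of the peaks at Cebpb, beside 23.1% of both whole lists together, a contrast by which the window was chosen. The window held 0.273% of the full estradiol list, 0.251% of the 5184 longest estradiol peaks (13 peaks) and 0.0965% of the vehicle list.

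The 3 clusters with the most estradiol peaks in the genome were each placed in a window of the same length for comparison. On chromosome 14 from 25964799 to 26664798 there were 79 estradiol and 13 vehicle peaks, and the leading cluster of 25 held 31.6% of the estradiol peaks. On chromosome 5 from 113703199 to 114403198 there were 52 and 7, and the leading cluster held 46.2%. On chromosome 5 from 35644809 to 36344808 there were 25 and 6, and the leading cluster held 84.0%. These windows held 8, 4 and 1 estradiol clusters in that order, and that of Cebpb held 4. At Cebpb the leading cluster of 8 held 17.0%, and the median gap of 7.12 kb compared with 2.44 to 3.36 kb in the others. Estradiol peaks with a vehicle overlap came to 6.38% at Cebpb and to 13.9%, 11.5% and 24.0% in the others in that order. This share is limited by the number of vehicle peaks in a window, and the interval at Cebpb (2.19 to 17.2) takes in 13.9% and 11.5%. All 4 windows were picked for their estradiol peaks, so these values are set side by side with no test. In the division into windows of 700 kb, 2 other windows had fewer vehicle peaks relative to estradiol peaks than Cebpb and 40 or more estradiol peaks. They held 64 estradiol and 5 vehicle peaks (chromosome 8, 122.5 to 123.2 Mb) and 42 and 3 (chromosome 4, 149.1 to 149.8 Mb).

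**Figure D4:**
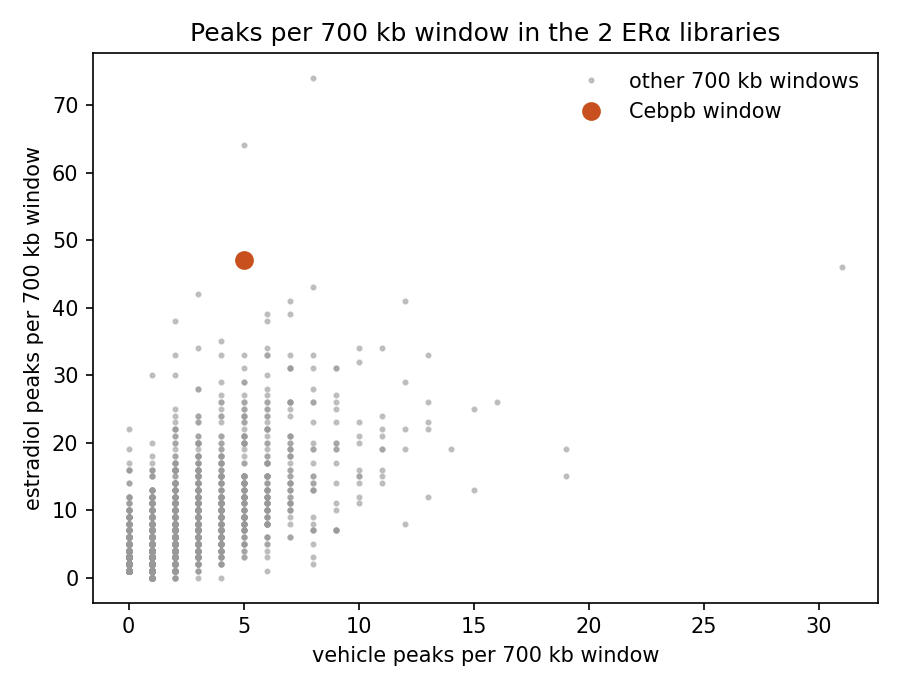
Number of estradiol peaks (vertical axis) against vehicle peaks (horizontal axis) in each of the 2580 windows of 700 kb that held a peak, with the window of Cebpb as the large orange point. It stands at 5 vehicle and 47 estradiol peaks, above most windows with the same number of vehicle peaks.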

How the data were processed

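The series has 5 samples, and the 2 ERα libraries were used. Those of RNA polymerase II and of input chromatin were not used here. Each list was deposited by the authors with chromosome, start, end and a peak name, and no score or other measure, on mm9 per the file headers. The submitters' processing notes name Partek. Which aligner, caller or control was used is not given in the sources used here. Average DNA length was 300 to 500 bp per the labels' protocols. Starts are printed counted from 1. Peak length is end minus start. Overlap means at least 1 shared bp, counted in Python 3.11.15 with pandas 2.3.3 and checked with bedtools 2.31.1. Intervals are from scipy 1.17.1. Overlap and cluster counters were tested on simulated data. Named peaks are all vehicle peaks, the 10 longest estradiol peaks, the 5 nearest to Cebpb, and the first and last of each cluster; others were named after their values were seen. The window, lists and rules were chosen with earlier results of these data known.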

Additional observations from a re-analysis of the deposited data

How the results depend on the processing

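Of 36 values under other settings, 23 stayed near those reported, meaning within 1.5 times for a count and inside the 95% interval of the reported value for a share or median. These wide limits take in a vehicle share of 4.35% in the longer part of each list and 2 overlaps with neighbouring peaks joined. Moving both edges of the window by 100 kb left 41 to 54 estradiol and 5 to 6 vehicle peaks. In the longer part of each list there were 22 estradiol and 1 vehicle peak, 1 estradiol cluster, a median gap of 15387 bp, and 1 overlap in either direction. Overlap of at least 50% of both peaks left 1 estradiol peak with a vehicle overlap and 1 vehicle peak with an estradiol overlap. Clusters numbered 2 with gaps under 5 kb and 2 with gaps under 25 kb, where neighbouring clusters run together. With the estradiol list reduced to its 5184 longest peaks, chosen after seeing the data, there were 13 estradiol peaks, 0 clusters and a vehicle share of 27.8%, where lists of equal length give 50.0% over the genome. No paired analysis was possible because each condition has 1 library. Unknown read depth limits every difference between the libraries.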
